A study of Mus musculus with 14 samples.

Results

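The 10 genes described here are the cyclins and M-phase kinase regulators Ccna2, Ccnb1, Ccnb2, Ccne1, Ccne2, Cdk1, Cdc25a, Cdc25b, Wee2 and Mos, taken by name from the 20238 genes with a symbol. Mouse embryos made by somatic cell nuclear transfer (SCNT, the transfer of a body cell nucleus, here from a cumulus cell, into an enucleated egg) were collected as two-cell embryos at 28 h, and the RNA of single embryos was sequenced. The embryos were of the B6D2F1 strain, and all 6 treatments shared activation with strontium and cytochalasin B and culture with deionized bovine serum albumin. The 14 embryos were 3 Control embryos without either agent, 1 given vitamin C (VC) at 10 µg/ml from 0 to 8 h, named VitaminC(0-8h), and 2 given it from 8 to 15 h, named VitaminC(8-15h). TSA, the histone deacetylase inhibitor trichostatin A, was given at 50 nM from 0 to 8 h to 3 TSA(0-8h) embryos, 2 TSA(0-8h)+VitaminC(0-8h) embryos and 3 TSA(0-8h)+VitaminC(8-15h) embryos. Each library held a part of the RNA of 1 embryo, and all embryos were collected at 1 time, so no earlier level was measured.

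Entry into and exit from M phase are set by Cdk1, a kinase that is active only when bound to a cyclin. Cyclins B1 and B2 are its M-phase partners, Wee2 is the kinase of the egg that adds the inhibitory phosphate to Cdk1, and Cdc25b and Cdc25a are phosphatases that remove it. Mos switches on the MAP kinase pathway that holds the egg in metaphase until activation. Cyclin A2 and cyclins E1 and E2 act in the DNA replication phase and on the way into it, and are used by the cleaving embryo. The egg stores many such mRNAs, which are cleared as the genome of the embryo is switched on around the two-cell stage.

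Stored mRNAs of the egg are held with short tails and lengthened through a cytoplasmic polyadenylation element near the 3′ end, which lies beside the hexamer that directs cleavage and polyadenylation. The last 30 bases up to and including that hexamer are shown for the 6 genes whose presence or absence the levels below turn on, from the longest coding transcript of GENCODE M1, whose mm9 build is that of the deposited values. Capitals mark the hexamer (AATAAA or ATTAAA) and the letters TTTTAT and TTTTAAT, which can overlap it, and only the sense strand was searched.
Wee2: cataTTTTAATccagatcattgtaAATAAA
Ccne1: gtgctgctatgtctatcaatTTTTAATAAA
Ccnb1: gcaatatggagactttatgttgctAATAAA
Ccna2: gaacagtaattatatatgtgtgtaAATAAA
Mos: taccactagggcatatttttaggaAATAAA
Ccnb2: taactctgctctgtattgaaggaaAATAAA
These windows lie on chr6:40416763-40416792 (plus strand), chr7:38883021-38883050, chr13:101548623-101548652, chr3:36463807-36463836, chr4:3797820-3797849 and chr9:70255512-70255541 (all minus strand), in that order, and all 6 are in 3′ untranslated sequence. Of the 10 genes, Wee2 and Ccne1 held TTTTAT or TTTTAAT in the last 100 bases of the transcript, as did 17.6% of 18216 genes with a 3′ untranslated region at least that long. Ccne2 and Cdk1 had no AATAAA or ATTAAA in their last 100 bases.

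Upstream of the start site, promoters of M-phase genes are known for CCAAT boxes and for the cell cycle homology region, whose letters are TTTGAA. RefSeq promoters of build GRCm38.p6 were at hand for 7 of the 10 genes, and the 250 bases before the start are shown for Ccnb1, which had reads in every embryo, for its paralogue Ccnb2, which had none in most embryos, and for Cdk1, their common kinase. Capitals mark CCAAT or TTTGAA on either strand (ATTGG and TTCAAA on the other).
Ccnb1: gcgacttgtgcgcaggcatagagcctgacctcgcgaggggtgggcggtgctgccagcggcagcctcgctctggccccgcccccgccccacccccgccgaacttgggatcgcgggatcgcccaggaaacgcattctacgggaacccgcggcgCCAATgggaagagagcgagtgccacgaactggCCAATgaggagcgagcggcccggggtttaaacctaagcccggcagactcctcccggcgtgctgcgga
Ccnb2: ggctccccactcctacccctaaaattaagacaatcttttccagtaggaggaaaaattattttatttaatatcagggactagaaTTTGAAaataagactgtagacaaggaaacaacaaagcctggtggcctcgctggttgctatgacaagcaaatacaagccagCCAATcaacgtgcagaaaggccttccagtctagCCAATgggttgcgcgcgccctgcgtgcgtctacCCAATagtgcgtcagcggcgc
Cdk1: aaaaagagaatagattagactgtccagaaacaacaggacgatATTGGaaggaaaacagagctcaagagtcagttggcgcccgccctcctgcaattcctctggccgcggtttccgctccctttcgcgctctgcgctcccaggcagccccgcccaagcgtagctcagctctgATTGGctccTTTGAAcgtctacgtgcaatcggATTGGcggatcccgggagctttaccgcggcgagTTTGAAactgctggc
They lie on chr13:100786487-100786736, chr9:70421555-70421804 and chr10:69352913-69353162, all on the minus strand. The promoter of Ccnb1 held 2 CCAAT boxes and no TTTGAA, that of Ccnb2 held 3 and 1, and that of Cdk1 held 3 and 2. The promoters not shown held no TTTGAA, with 1 CCAAT box for Wee2, 1 for Cdc25b, 2 for Cdc25a and 0 for Ccne1. Of the 7 promoters, 2 thus held both. Of 32851 promoters of the same length, 33.8% held CCAAT, 16.0% held TTTGAA and 5.55% held both.

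Between 3021540 and 13589389 reads per embryo were counted, and between 3104 and 6162 genes reached 1 RPKM (reads on a transcript divided by its length in kilobases and by the library's reads). Embryos whose library identifiers share a prefix are called a pool here, which gives 3 pools of 5, 6 and 3 embryos, and the sources used here do not say what the identifier stands for. Within a pool, 28 pairs of embryos had a median Spearman correlation of 0.731, and 63 pairs across pools one of 0.636. Of 10 oocyte markers, between 4 and 10 reached 1 RPKM in an embryo, with a summed level between 279 and 1299 RPKM. Bmp15 was at 91.3 RPKM or more in every embryo, while H1f8 had no read in 9 and Zar1 none in 6. Of 10 two-cell markers, between 1 and 9 reached 1 RPKM in an embryo, with a summed level between 7.67 and 1081 RPKM. Tcstv1 and Zfp352 each reached 1 RPKM in 13 embryos, while Zscan4c and Zscan4d each had no read in 7. Of 12 cumulus cell markers, 9 stayed below 1 RPKM in every embryo, including Fshr and Inhba, which had no read in any embryo. The median of their summed level was 0.194 RPKM, and the highest single value was Vcan at 68.97 RPKM in TSA(0-8h) replicate 2. The fewest genes at 1 RPKM were in VitaminC(8-15h) replicate 2 (3104), with TSA(0-8h) replicate 2 next (3298). VitaminC(8-15h) replicate 2 also had the lowest level of 3 of the 10 genes (Ccna2, Ccnb1 and Wee2). The terms fitted over all 14 embryos are given with and without it.

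Wee2 and Ccnb1 were the steady members. They were at 10 RPKM or more in all 14 embryos, which none of the other 8 genes was. Wee2 ran from 81.0 RPKM in VitaminC(8-15h) replicate 2 to 584 RPKM in TSA(0-8h) replicate 2, with a median of 178 RPKM, and only 180 genes had a higher median. Its levels were 187, 422 and 426 RPKM in Control embryos, 117 in the VitaminC(0-8h) embryo, 434 and 81.0 in VitaminC(8-15h) embryos, 148, 584 and 220 in TSA(0-8h) embryos, 142 and 125 with TSA(0-8h)+VitaminC(0-8h) and 169, 137 and 247 with TSA(0-8h)+VitaminC(8-15h). All treatments with more than 1 embryo overlapped Control, apart from the TSA(0-8h)+VitaminC(0-8h) pair, which lay below it. That pair was not tested against Control, and the share of all genes that part in this way was not counted. With so few embryos, groups can part by chance. The SD of log2(RPKM+1) over the 14 embryos was 0.86 for Wee2, a smaller spread than in 95.7% of the 2785 genes with 1 RPKM or more in at least 10 embryos, with no matching on level. Of the 5 members that reached that mark (Wee2, Ccnb1, Ccne1, Ccna2 and Cdk1), the kinase that restrains Cdk1 varied least.

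Ccnb1 ran from 17.8 RPKM in VitaminC(8-15h) replicate 2 to 419 RPKM in TSA(0-8h)+VitaminC(0-8h) replicate 2, with a median of 168 RPKM. It was at 154, 224 and 95.6 RPKM in Control embryos, 242 in the VitaminC(0-8h) embryo, 134 and 17.8 in VitaminC(8-15h) embryos, 346, 132 and 73.4 in TSA(0-8h) embryos, 181 and 419 with TSA(0-8h)+VitaminC(0-8h) and 74.5, 181 and 383 with TSA(0-8h)+VitaminC(8-15h). Apart from VitaminC(8-15h) replicate 2, every embryo was above 73 RPKM. Its SD of log2(RPKM+1) was 1.17, smaller than in 91.6% of the 2785 genes. Wee2 was above Ccnb1 in 8 of 14 embryos, so per length neither mRNA was the more abundant throughout. All embryos were collected at the two-cell stage, and RPKM is scaled to the library's reads, so the amount of mRNA per embryo was not measured.

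**Figure D1:**
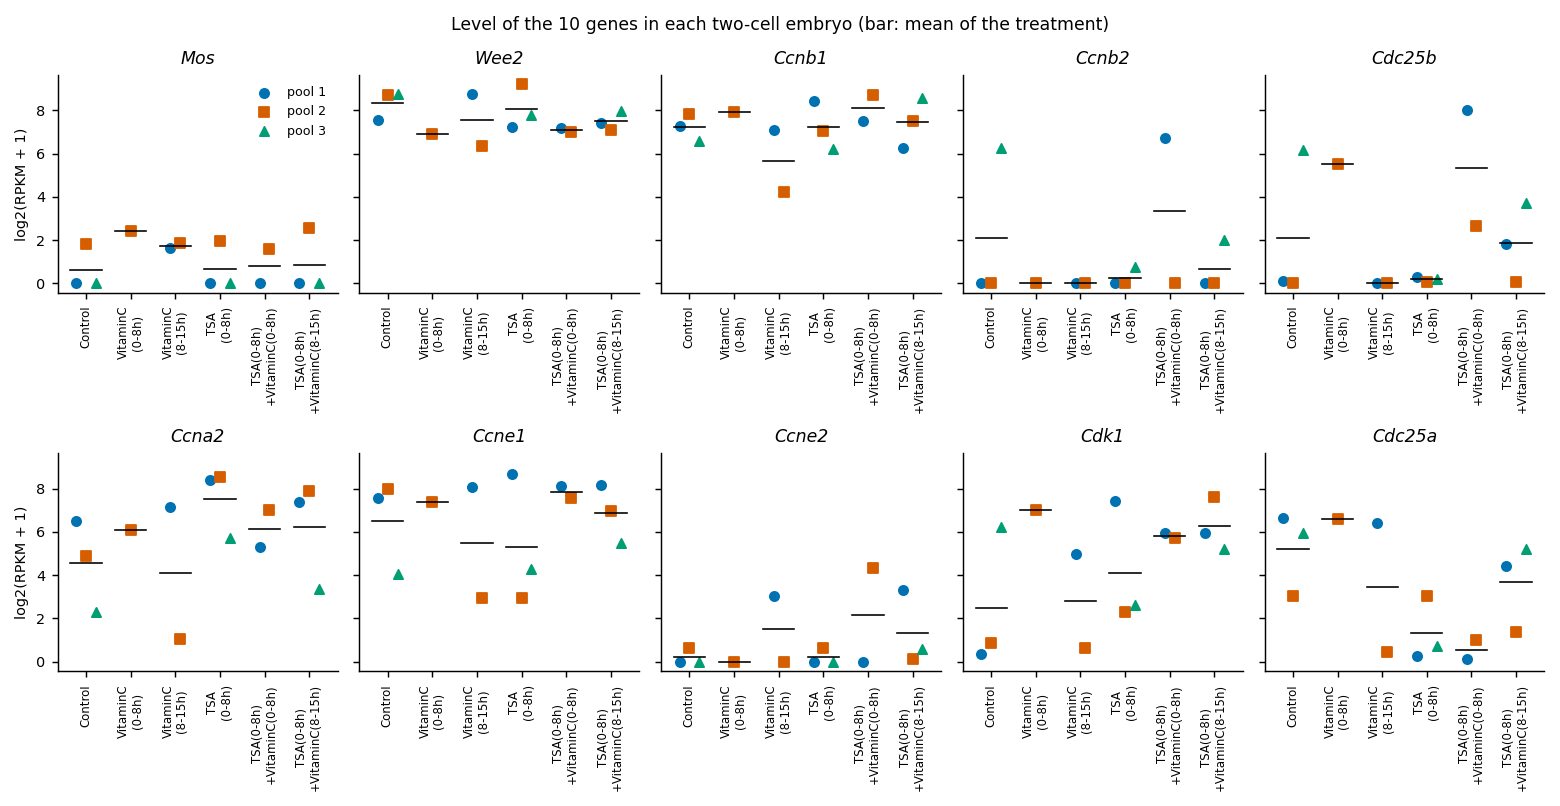
Level of each gene in each embryo as log2(RPKM + 1) on the vertical axis, by treatment on the horizontal axis. Each point is 1 embryo, coloured by library pool, and the bar is the mean of the treatment. Wee2 and Ccnb1 stay high in all 14 embryos, while Ccnb2, Cdc25b and Ccne2 sit at or near 0 in most embryos and high in a few.

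The other B-type cyclin, Ccnb2, was without reads in most embryos and high in 2. It had no read in 10 embryos, where 3 reads would have stood for 0.149 to 0.644 RPKM, and 75.8 RPKM in Control replicate 3, 104 in TSA(0-8h)+VitaminC(0-8h) replicate 1, 3.01 in TSA(0-8h)+VitaminC(8-15h) replicate 3 and 0.663 in TSA(0-8h) replicate 3. These values rested on 1588, 523, 57 and 12 reads. Each library was amplified by PCR from a part of its embryo's RNA, so reads do not count molecules. An embryo without reads may still have held the mRNA. Ccnb1 was at 95.6 and 181 RPKM in the first 2 of these embryos, inside its range in the others.

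Cdc25b, the phosphatase that opens the way to Cdk1 activity in the egg, was patchy in the same way. It was at 255 RPKM in TSA(0-8h)+VitaminC(0-8h) replicate 1, 70.0 in Control replicate 3, 44.5 in the VitaminC(0-8h) embryo and 12.0 in TSA(0-8h)+VitaminC(8-15h) replicate 3. The remaining 10 embryos were at 5.23 RPKM or below, 3 of them without a read, and both VitaminC(8-15h) embryos were among these 3. The 2 embryos with the highest Ccnb2 were thus also the 2 with the highest Cdc25b, although they came from different treatments and different pools.

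Mos was scarce in every embryo. It had no read in 7 of 14, where 3 reads would have stood for 0.152 to 0.686 RPKM, and it did not pass 4.80 RPKM in the others. The levels were 0.0, 2.52 and 0.0 RPKM in Control embryos, 4.38 in the VitaminC(0-8h) embryo, 2.10 and 2.63 in VitaminC(8-15h) embryos, 0.0, 2.83 and 0.0 in TSA(0-8h) embryos, 0.0 and 1.95 with TSA(0-8h)+VitaminC(0-8h) and 0.0, 4.80 and 0.0 with TSA(0-8h)+VitaminC(8-15h). Where it was read, 25 to 54 reads were counted. Among the M-phase genes of the egg, then, Wee2 and Ccnb1 lay above Mos and above Ccnb2 in 14 of 14 embryos.

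Reads for Mos lay with the library pool. All 6 embryos of pool 2 had reads for it, against 1 of 5 in pool 1 and 0 of 3 in pool 3. Pool 2 held at least 1 embryo of every treatment, and the 3 libraries of pool 3 held 11753807 to 13589389 reads, and were 3 of the 4 deepest. Over all 15352 genes with reads, 267 (1.74%) had reads in all 6 embryos of pool 2 and in none of the 3 of pool 3, a pattern looked up after the values of Mos were seen.

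Ccnb2 had the mirror pattern, with reads in all 3 embryos of pool 3 and 0 of 6 in pool 2, which 159 genes (1.04%) shared. Ccne1 parted between 2 of the pools. It lay between 186 and 401 RPKM in the 5 embryos of pool 1 and between 15.5 and 43.2 RPKM in the 3 of pool 3, with no overlap. In pool 2 it lay between 6.61 and 250 RPKM, a range that overlapped both. The share of all genes that part in this way was not counted. The part of the pools in these patterns was not tested, and they were picked after the values were seen.

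**Figure D2:**
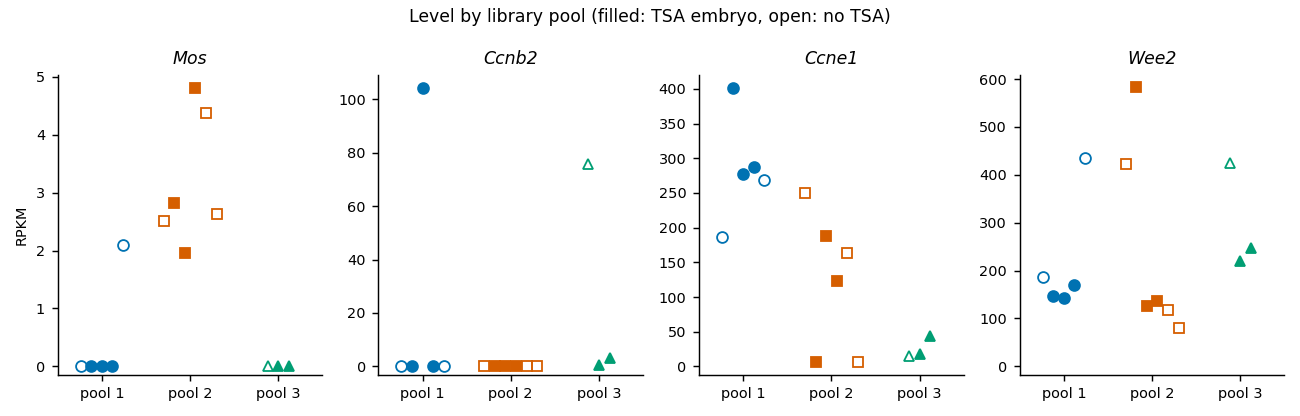
RPKM of 4 of the genes on the vertical axis, by library pool on the horizontal axis. Filled points are embryos given TSA and open points embryos without it. Mos has reads in all 6 embryos of pool 2, Ccnb2 in none of them, and Ccne1 is between 15.5 and 43.2 RPKM in pool 3.

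Of the cyclins used by the cleaving embryo, Ccna2 and Ccne1 had reads in every embryo but spread far more widely than Wee2. Ccna2 was at 89.0, 28.6 and 3.87 RPKM in Control embryos, 67.6 in the VitaminC(0-8h) embryo, 139 and 1.03 in VitaminC(8-15h) embryos, 336, 365 and 50.8 in TSA(0-8h) embryos, 38.4 and 126 with TSA(0-8h)+VitaminC(0-8h) and 165, 236 and 9.24 with TSA(0-8h)+VitaminC(8-15h). Both TSA(0-8h) replicates above 300 RPKM exceeded every embryo of the other treatments, and the third overlapped Control. The lowest Ccna2 of each 3-embryo treatment was that of its pool 3 embryo.

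Ccne1 was at 186, 250 and 15.5 RPKM in Control embryos, 164 in the VitaminC(0-8h) embryo, 269 and 6.61 in VitaminC(8-15h) embryos, 401, 6.61 and 18.5 in TSA(0-8h) embryos, 277 and 189 with TSA(0-8h)+VitaminC(0-8h) and 287, 122.5 and 43.2 with TSA(0-8h)+VitaminC(8-15h). The TSA(0-8h) embryos spanned both the highest and the lowest level of all 14. Its SD of log2(RPKM+1) was 2.06 and that of Ccna2 2.27, smaller than in 57.7% and 41.4% of the 2785 genes.

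Ccne2, the second E-type cyclin, was near absent. It had no read in 7 embryos and reached 1 RPKM in 3, with 19.0 RPKM in TSA(0-8h)+VitaminC(0-8h) replicate 2, 9.06 in TSA(0-8h)+VitaminC(8-15h) replicate 1 and 7.14 in VitaminC(8-15h) replicate 1. All 3 of these embryos had been given VC, and no Control embryo passed 0.534 RPKM. The other embryos given VC were at 0.0, 0.0, 0.0, 0.0851 and 0.485 RPKM, and this pattern was picked after the values were seen. The fit left Ccne2 out for its low values. An exact permutation test of its level, the 5 embryos given VitaminC(8-15h) against the other 9, gave p = 0.43. These 9 included the VitaminC(0-8h) and TSA(0-8h)+VitaminC(0-8h) embryos, and any VC against none was not tested.

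Cdk1, the kinase itself, had reads in all 14 embryos but reached 10 RPKM in 9. It was at 0.258, 0.815 and 73.5 RPKM in Control embryos, 128 in the VitaminC(0-8h) embryo, 30.9 and 0.532 in VitaminC(8-15h) embryos, 170, 3.89 and 5.12 in TSA(0-8h) embryos, 59.7 and 51.0 with TSA(0-8h)+VitaminC(0-8h) and 60.5, 197 and 36.4 with TSA(0-8h)+VitaminC(8-15h). The 3 embryos below 1 RPKM had not been given TSA. All 5 embryos given TSA together with VC were at 36.4 RPKM or more, a range that Control replicate 3, the VitaminC(0-8h) embryo and TSA(0-8h) replicate 1 shared. Ccnb1 exceeded its kinase in 13 of 14 embryos.

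Cdc25a, the phosphatase of the replication phase and of early cleavage, lies on chr9:109778083-109796392 (mm9, plus strand) and had the smallest p of the 10 genes for TSA below. It was at 97.9, 7.27 and 60.9 RPKM in Control embryos, 96.0 in the VitaminC(0-8h) embryo and 83.9 and 0.378 in VitaminC(8-15h) embryos. With TSA it was at 0.182, 7.13 and 0.657 RPKM in TSA(0-8h) embryos, 0.0845 and 0.968 with TSA(0-8h)+VitaminC(0-8h) and 20.6, 1.56 and 35.7 with TSA(0-8h)+VitaminC(8-15h). Of the 6 embryos without TSA, 4 were above every TSA embryo, and the exceptions were Control replicate 2 and VitaminC(8-15h) replicate 2.

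By median level the 10 genes ran from Wee2 (178 RPKM), Ccne1 (175) and Ccnb1 (168) through Ccna2 (78.3), Cdk1 (43.7) and Cdc25a (7.20) to Mos (0.98), Cdc25b (0.189), Ccne2 (0.0426) and Ccnb2 (0.0). Neighbours in this order did not part in the embryos. Wee2 was above Ccne1 in 9 of 14, Ccne1 above Ccnb1 in 6, Ccnb1 above Ccna2 in 10, Ccna2 above Cdk1 in 10 and Cdk1 above Cdc25a in 10.

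The balance between the 2 sets was followed per embryo as the mean log2(RPKM+1) of the egg's M-phase genes (Mos, Wee2, Ccnb1, Ccnb2 and Cdc25b) minus that of the embryonic cyclins (Ccna2, Ccne1 and Ccne2), as a description with no test. It was above 0 in 5 of 14 embryos and ran from -3.20 in TSA(0-8h)+VitaminC(8-15h) replicate 1 to 3.44 in Control replicate 3. The side of 0 depends on which genes make up each set. Mos, Cdc25b and Ccnb2, with medians of 0.98, 0.189 and 0.0 RPKM, lower the M-phase mean. Ccne2 (0.0426) lowers the cyclin mean. Gene by gene, Wee2 was above Ccna2 in 11 embryos and above Ccne1 in 9, and Ccnb1 was above them in 10 and 8. Group means were 0.31 ± 2.75 (SD, n = 3) in Control, -1.07 ± 1.24 (SD, n = 3) in TSA(0-8h), -1.14 ± 2.28 (SD, n = 3) in TSA(0-8h)+VitaminC(8-15h), -0.45 ± 2.63 (SD, n = 2) in TSA(0-8h)+VitaminC(0-8h) and -0.70 ± 2.66 (SD, n = 2) in VitaminC(8-15h), with 0.06 in the VitaminC(0-8h) embryo. The means lay closer together than the embryos of 1 treatment, and each treatment with more than 1 embryo had embryos on both sides of 0 except TSA(0-8h), whose 3 embryos were all below it.

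Where the balance was high, different genes made it so. In Control replicate 3 the M-phase mean was 5.55 with Ccnb2 and Cdc25b present, and the cyclin mean was 2.11. In VitaminC(8-15h) replicate 2 both means were the lowest of all embryos, at 2.49 and 1.32, and the balance of 1.17 came with less of either set.

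**Figure D3:**
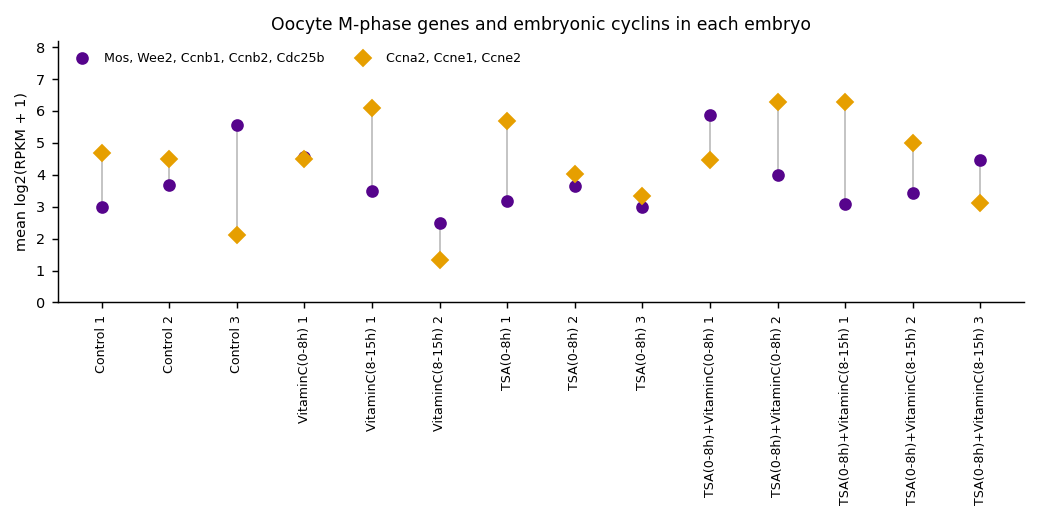
Mean log2(RPKM + 1) of the egg's M-phase genes (circles) and of the embryonic cyclins (diamonds) on the vertical axis, with 1 pair of points per embryo on the horizontal axis. Circles lie above diamonds in 5 of the 14 embryos, and these belong to 5 treatments.

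What TSA did across the series was asked with a fit of all 14 embryos that had terms for TSA, VitaminC(0-8h) and VitaminC(8-15h). No member passed the test with limma at an adjusted p under 0.05 (0 of 7 tested, beside 0.0% of 4372 genes). At an unadjusted p under 0.05, 1 of 7 was lower and 0 were higher, beside 2.56% of genes lower and 3.13% higher. That member was Cdc25a, at a median of 1.26 RPKM (0.0845 to 35.7) in 8 TSA embryos and 72.4 RPKM (0.378 to 97.9) in 6 without TSA. Its difference on the log2(RPKM+1) scale was -2.85 ± 1.39 (SE), with a 95% interval from -5.64 to -0.05 and adjusted p = 0.86.

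The 2-sided exact permutation test of Cdc25a, 8 against 6 embryos, gave p = 0.039. Of 50 such tests, of the 10 genes in 5 comparisons, 1 was under 0.05, but only the 20 over 14 embryos could be, since 3 embryos against 3 cannot go below 0.1. Within each pool the mean of Cdc25a was lower with TSA, on the log2 scale and with no account taken of VC. The differences were -4.92 in pool 1 (3 TSA embryos against 2), -1.58 in pool 2 (3 against 3) and -2.99 in pool 3 (2 against 1). In pool 2 the embryos without TSA were at 7.27, 96.0 and 0.378 RPKM, and those with TSA at 7.13, 0.968 and 1.56 RPKM. With each embryo left out in turn, the fitted difference stayed between -4.08, without VitaminC(8-15h) replicate 2, and -2.05.

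Ccna2 was at a median of 146 RPKM (9.24 to 365) with TSA and 48.1 RPKM (1.03 to 139) without it. The difference was 2.10 ± 1.05 (SE), with a 95% interval from -0.02 to 4.21 and adjusted p = 0.87, and the exact permutation p was 0.10. It was 0.21 within pool 1, 3.80 in pool 2 and 2.24 in pool 3, so its size differed widely between pools. Pool 3 had only 1 embryo without TSA. For the other genes tested the differences were 1.72 (Cdk1), 0.68 (Ccnb1), 0.03 (Ccne1), -0.11 (Wee2) and -0.63 (Mos). For Wee2 the 95% interval ran from -1.36 to 1.14. Without VitaminC(8-15h) replicate 2 the differences were 1.31 (Ccna2), 0.89 (Cdk1), 0.14 (Ccnb1), -0.84 (Ccne1), -0.43 (Wee2) and -0.56 (Mos), so the size of the first 3 rested in part on that embryo.

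TSA(0-8h) against Control, with 3 embryos each, asks the same without VC. No member passed the test (0 of 6 tested, beside 0.0% of 2471 genes). At an unadjusted p under 0.05 the count was also 0, beside 5.5% of genes higher and 9.39% lower. Cdc25a was the one member whose groups did not overlap, and it was lower with TSA, beside 11.6% of genes wholly lower and 6.64% wholly higher. It passed the filter through the Control embryos, where it was high, since TSA(0-8h) replicates 1 and 3 were at 0.182 and 0.657 RPKM. The gap was narrow. TSA(0-8h) replicate 2 was at 7.13 RPKM (202 reads) and Control replicate 2 at 7.27 RPKM (181 reads), closer than their counting error, with 95% Poisson intervals from 6.18 to 8.18 and from 6.25 to 8.41 RPKM.

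The difference of Cdc25a was -3.88 ± 1.93 (SE), with adjusted p = 0.34 and an exact permutation p of 0.1, the smallest that 3 against 3 embryos allow. For Ccna2 the difference was 2.98 ± 1.49 (SE) on the log2 scale, with a 95% interval from -0.07 to 6.04 and adjusted p = 0.35. The remaining 4 were within 1.64 of 0, and the median of the 6 was -0.13 beside -0.40 over all genes tested.

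TSA(0-8h)+VitaminC(8-15h) against Control is the comparison of the full treatment. Again no member passed (0 of 6 tested, beside 0.0% of 3297 genes). At an unadjusted p under 0.05 the count was 0, beside 14.0% of genes higher and 3.76% lower. No member's groups parted, while 15.7% of genes lay wholly higher and 5.7% wholly lower. Cdk1 had the largest difference, at 60.5, 197 and 36.4 RPKM against 0.258, 0.815 and 73.5 RPKM. On the log2 scale it was 3.80 ± 1.82 (SE), with a 95% interval from -0.05 to 7.64, adjusted p = 0.29 and an exact permutation p of 0.3. Cdk1 passed the filter only through the TSA(0-8h)+VitaminC(8-15h) embryos, since Control replicates 1 and 2 were below 1 RPKM.

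Wee2 was -0.85 ± 0.73 (SE) and Ccna2 1.65 ± 1.53 (SE), neither of which passed. Cdc25a was -1.55 (95% interval -5.15 to 2.05), Ccne1 0.34 and Ccnb1 0.22. These differences stand beside a median of 0.78 over all genes tested, and with libraries scaled by median ratios that median was 0.10 and Ccne1 and Ccnb1 turned to -0.47 and -0.60.

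**Figure D4:**
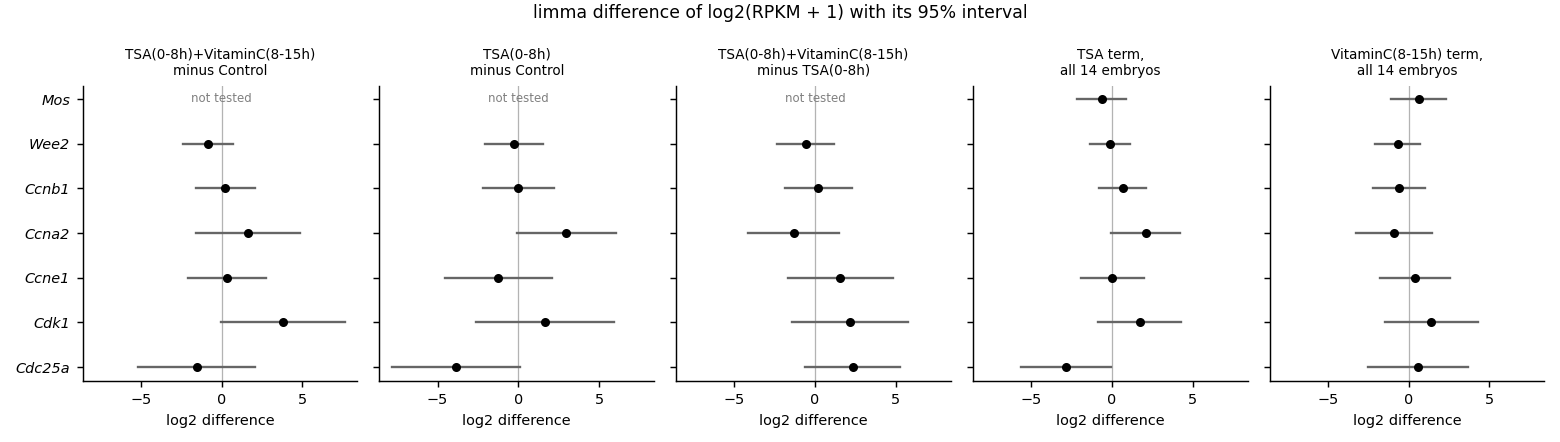
Difference of log2(RPKM + 1) on the horizontal axis, for the 7 genes that passed the filter in at least 1 of the 5 comparisons (vertical axis). Points are limma estimates and lines 95% intervals. All lines cross 0 except that of Cdc25a for TSA over all 14 embryos, which ends at -0.05.

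Adding VitaminC(8-15h) to TSA(0-8h) changed no member past the threshold (0 of 6 tested, beside 0.0% of 3115 genes). At an unadjusted p under 0.05 the count was 0, beside 16.1% of genes higher and 2.18% lower. No member's groups parted, while 18.2% of genes lay wholly higher and 3.47% wholly lower. Cdc25a was at 20.6, 1.56 and 35.7 RPKM with both and at 0.182, 7.13 and 0.657 RPKM with TSA alone, a difference of 2.33 ± 1.37 (SE) with adjusted p = 0.41. Here it passed the filter only through the embryos given both. Cdk1 was 2.16, Ccne1 1.57, Ccnb1 0.21, Wee2 -0.58 and Ccna2 -1.33, against a median of 1.21 over all genes tested. This comparison and the previous pair share embryos, so their differences are not separate evidence.

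Over all 14 embryos the VitaminC(8-15h) term passed for no member (0 of 7 tested, beside 0.0% of 4372 genes). At an unadjusted p under 0.05 the count of members was also 0, beside 7.18% of genes higher and 1.44% lower. The differences ran from -0.90 (Ccna2) to 1.42 (Cdk1). Without VitaminC(8-15h) replicate 2 the differences were 2.44 (Cdk1), 2.10 (Cdc25a), 1.47 (Ccne1), 0.56 (Mos), 0.08 (Ccnb1), 0.06 (Ccna2) and -0.29 (Wee2), so the negative differences of Ccnb1 and Ccna2 rested on that embryo. The interaction of TSA and VitaminC(8-15h), fitted on 11 embryos for 8 of the 10 genes, passed for none (0.0% of 6549 genes), with 0 at an unadjusted p under 0.05 beside 3.13% of genes above 0 and 1.36% below. Cdc25b came nearest, with an interaction of 3.75 ± 2.20 (SE) and adjusted p = 0.90.

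The wider network was read from 4 lists of 73 genes. None passed the adjusted threshold in any of the 5 comparisons, with 21 to 46 of the 73 tested. At an unadjusted p under 0.05, 4 were higher and 2 lower with TSA(0-8h)+VitaminC(8-15h) against Control (14.0% and 3.76% of all genes), 0 and 2 with TSA(0-8h) against Control (5.5% and 9.39%), 3 and 0 for TSA(0-8h)+VitaminC(8-15h) against TSA(0-8h) (16.1% and 2.18%), 0 for TSA over 14 embryos and 1 higher for VitaminC(8-15h) (7.18%). These shares lay on both sides of those of all genes.

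Among 14 other cyclins, Cdks and partners, 3 had a median of 1 RPKM or more, namely Ccnd3, a D-type cyclin of the G1 phase (median 9.63 RPKM), Cdk2, the partner of cyclins E and A (8.95 RPKM), and Cdk7, which activates Cdks (3.41 RPKM). Ccnd3 reached 2325 RPKM in VitaminC(8-15h) replicate 2, the embryo with the fewest genes, and did not pass 157 RPKM elsewhere. Cdk2 was at 145, 26.6 and 51.6 RPKM in TSA(0-8h)+VitaminC(8-15h) embryos and at 4.43, 0.255 and 0.193 RPKM in Control embryos. That difference was 4.89 ± 1.67 (SE) on the log2 scale with adjusted p = 0.13. In the same comparison Ccnd3 was higher by 3.24 ± 1.47 (SE, adjusted p = 0.25). Mnat1, of the same list and named after its values were seen, was higher by 3.24 ± 1.06 (SE, adjusted p = 0.11). Cdk2, Ccnd3 and Mnat1 passed the filter only through the TSA(0-8h)+VitaminC(8-15h) embryos, where their means were higher.

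The 16 other kinases, phosphatases and inhibitors of the Cdk1 switch were better represented, with 11 at a median of 1 RPKM or more. Aurka, the Aurora kinase of the spindle poles (median 103 RPKM), Ywhae, a member of the protein family that binds phosphorylated Cdc25 (86.9 RPKM), and Plk1, the polo kinase that acts on Wee and Cdc25 proteins (76.8 RPKM), led this list. For Plk1 the difference of TSA(0-8h)+VitaminC(8-15h) from TSA(0-8h) was 4.17 ± 1.60 (SE), which did not pass (adjusted p = 0.16). Plk1 passed the filter only through the embryos given both, where it was high, since TSA(0-8h) replicate 3 was at 0.734 RPKM.

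Of the 10 genes of the Mos pathway and the cytostatic factor, 5 had a median of 1 RPKM or more. Nek2 (80.2 RPKM) and Map2k1, a MAP kinase kinase downstream of Mos (43.8 RPKM), led it, and both medians stood above that of Mos itself. Cpeb1, which binds the cytoplasmic polyadenylation element, had a median of 0.818 RPKM. It is named after its values were seen. Its difference from Control was -4.02 ± 1.27 (SE, adjusted p = 0.11) with TSA(0-8h)+VitaminC(8-15h) and -3.53 ± 1.62 (SE, adjusted p = 0.30) with TSA(0-8h), neither past the threshold, and the 2 tests share the Control embryos. In both tests Cpeb1 passed the filter only through the Control embryos, where it was high.

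The 33 genes of cyclin destruction and the spindle checkpoint had the most members present, 25 of them at a median of 1 RPKM or more. Cul1, the scaffold of the SCF ubiquitin ligase that acts on cyclin E (161 RPKM), Incenp of the chromosomal passenger complex (114 RPKM) and Ube2s, a ubiquitin-conjugating enzyme of the anaphase-promoting complex (86.4 RPKM), led it. For Ube2s the difference of TSA(0-8h)+VitaminC(8-15h) from TSA(0-8h) was 4.43 ± 1.55 (SE, adjusted p = 0.13). Anapc4, a subunit of the same complex named after its values were seen, had differences from Control of -5.51 ± 1.62 (SE, adjusted p = 0.14) with TSA(0-8h) and -3.98 ± 1.68 (SE, adjusted p = 0.21) with TSA(0-8h)+VitaminC(8-15h). Aurkb and Cdc20, also named after their values were seen, were higher with TSA(0-8h)+VitaminC(8-15h). Aurkb differed from Control by 3.96 ± 1.84 (SE, adjusted p = 0.27) and Cdc20 from TSA(0-8h) by 3.67 ± 1.56 (SE, adjusted p = 0.22). None of these differences passed the threshold. Ube2s and Aurkb passed the filter only through the TSA(0-8h)+VitaminC(8-15h) embryos and Anapc4 only through the Control embryos, where each was high. Cul1 and Incenp, like Ccnb1 and Wee2, were at 10 RPKM or more in every embryo.

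Across the 14 embryos, the genes whose log2(RPKM+1) moved most like that of each member were looked up among the 2785 genes, as a description over points that share pools and depth. For Wee2 they were Fnip1 (Pearson r = 0.81) and Peak1 (0.77), for Ccnb1 Kif4 (0.84) and Rbm6 (0.83), for Ccna2 Wdr33 (0.86) and Nabp1 (0.83), for Ccne1 Snd1 (0.87) and Rpl10 (0.86) and for Cdk1 Tob2 (0.86). Each of these r is the highest or next highest of many, and what r unrelated genes would reach was not worked out. Between any 2 of these 5 members the highest r was 0.57, for Ccnb1 and Ccne1. Wee2 had r of 0.12 with Ccnb1, 0.11 with Ccna2, -0.20 with Ccne1 and -0.22 with Cdk1.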

How the data were processed

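Single-embryo RNA libraries were sequenced as single-end reads of 50 bases and 1 library per embryo. The authors trimmed and filtered reads (Q20), mapped them to mm9 with TopHat2, counted reads on exons and deposited RPKM values per RefSeq transcript. Of 25650 entries, 25246 had a symbol, and entries of a gene were summed. Whole reads were recovered from the steps of the RPKM values for all 17538 entries with reads (100.0%, relative tolerance 1e-12), giving 99.92 to 100.0% of each total. Intervals and floors of 3 reads cover counting error only.

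Genes reaching 1 RPKM in each of the 3 embryos of a group (or in any 7 of 14 for terms over all embryos, any 3 of 11 for the interaction) were tested with limma 3.58.1 in R 4.3.3 (lmFit, eBayes with trend) on log2(RPKM+1), a scale that understates changes of low genes, with Benjamini-Hochberg adjustment at 0.05. The tests were checked on simulated data. Ccnb2, Ccne2 and Cdc25b passed the filter in none of the 5 comparisons and Mos in 2. Exact permutation tests (scipy 1.17.1) were 2-sided. The 10 members are all named. Of the 4 further lists, genes past the threshold or otherwise the 3 with the highest median were named, and for likeness the 2 genes with the highest r. Of the genes these rules name, 2 are not reported here. Members and lists were chosen with earlier results of these data known. Each library is 1 embryo, so p-values measure the spread between embryos together with that of making and amplifying the libraries, which cannot be told apart. The main fits had no term for the pool. Alternatives were another pseudocount, filters, scalings, the highest entry of a gene, limma-voom on recovered reads, a replicate block, 1 fit of all embryos, the pool as a term and leaving out each embryo. Samples were grouped by their labels, and the pool is the shared prefix of the library identifiers, whose meaning is not given in the sources used here. The labels count 28 h from nuclear transfer and the study's methods from activation.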

Additional observations from a re-analysis of the deposited data

Results flagged for a closer look

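In 40 groups (each gene in embryos with and without TSA and with and without VitaminC(8-15h)), 8 had an embryo far from the others by Dixon's ratio of the gap to the range of log2(RPKM+1). For normally distributed values chance gives about 1 in 20 groups, which does not hold for Ccnb2, Cdc25b and Ccne2, at or near 0 in most embryos, where the ratio is 1.0 whenever all others are at 0. The groups share embryos. VitaminC(8-15h) replicate 2 was low for Ccnb1 among embryos without TSA (ratio 0.639, 17.8 RPKM, next 95.6). Control replicate 3 was high for Ccnb2 among embryos without TSA (ratio 1.0, 75.8 RPKM, the others 0.0), as was TSA(0-8h)+VitaminC(8-15h) replicate 3 among VitaminC(8-15h) embryos (ratio 1.0, 3.01 RPKM) and TSA(0-8h)+VitaminC(0-8h) replicate 1 among TSA embryos (ratio 0.702, 104 RPKM, next 3.01). The last embryo was also high for Cdc25b (ratio 0.542, 255 RPKM, next 12.0). Ccne2 was high in VitaminC(8-15h) replicate 1 among embryos without TSA (ratio 0.796, 7.14 RPKM, next 0.534) and in TSA(0-8h)+VitaminC(0-8h) replicate 2 among embryos without VitaminC(8-15h) (ratio 0.854, 19.0 RPKM, next 0.550). TSA(0-8h) replicate 2 was high for Wee2 among TSA embryos (ratio 0.561, 584 RPKM, next 247).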

How the results depend on the processing

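No member passed the adjusted threshold in any of the 5 comparisons under any alternative, and the lowest adjusted p was 0.0999 (Cdk1, TSA(0-8h)+VitaminC(8-15h) against Control, limma-voom). Of 308 member values under alternatives other than leaving out an embryo, 14 turned. By median-ratio scaling, Ccnb1 (-0.60) and Ccne1 (-0.47) turned for TSA(0-8h)+VitaminC(8-15h) against Control, Wee2 (0.16) for TSA(0-8h) against Control, Ccnb1 (-1.11) for TSA(0-8h)+VitaminC(8-15h) against TSA(0-8h), Ccne1 (-0.14) for TSA and Ccne1 (-0.16) and Cdc25a (-0.043) for VitaminC(8-15h). By quantile normalization, Ccnb1 (-0.25, TSA(0-8h) against Control), Ccne1 (-0.12, TSA) and Cdc25a (-0.11, VitaminC(8-15h)) turned, and by limma-voom Ccnb1 (-0.26, TSA(0-8h) against Control), Ccne1 (-0.15, TSA), Ccnb1 (0.25) and Cdc25a (-0.41, both VitaminC(8-15h)). The cause was not tested.

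With 1 embryo left out, 26 of 304 values turned, in 13 of 32 differences. The ranges were -0.59 to 0.52 (Ccnb1), -0.84 to 0.15 (Wee2) and -0.018 to 3.51 (Cdk1) for TSA(0-8h) against Control, -0.35 to 0.82 (Ccnb1) and -0.90 to 1.06 (Ccne1) for TSA(0-8h)+VitaminC(8-15h) against Control, -2.25 to 0.095 (Ccna2) and -0.36 to 0.81 (Ccnb1) for TSA(0-8h)+VitaminC(8-15h) against TSA(0-8h), -0.84 to 0.62 (Ccne1) and -0.43 to 0.19 (Wee2) for TSA, and -1.86 to 0.065 (Ccna2), -0.97 to 0.084 (Ccnb1), -0.31 to 1.47 (Ccne1) and -0.11 to 2.10 (Cdc25a) for VitaminC(8-15h).

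The number of genes called, 0 in each comparison, did depend on the processing. For TSA(0-8h)+VitaminC(8-15h) against Control it was 107 with a pseudocount of 0.1, 183 with a minimum of 5 RPKM, 319 by limma-voom, 7 with the replicate block and 1 in a fit of all 14 embryos. For TSA(0-8h) against Control it was 99, 107, 1, 5 and 4 under the same settings, 5 with a filter blind to the groups, 2 by quantile normalization and 3 with the highest entry. For TSA(0-8h)+VitaminC(8-15h) against TSA(0-8h) it was 176 with a pseudocount of 0.1, 213 with a minimum of 5 RPKM, 283 by limma-voom, 168 with the replicate block, 1 by quantile normalization and 3 by median ratios. For TSA it was 2 by limma-voom, and for VitaminC(8-15h) 6 by limma-voom and 1 with a pseudocount of 0.1, no filter, a filter on any 3 embryos or the highest entry. With 1 embryo left out it ran from 0 to 4, 0 to 2, 0 to 119 (119 without TSA(0-8h)+VitaminC(8-15h) replicate 2), 0 to 2 and 0 to 5 in these comparisons. In the pairing check, deviations of same-numbered embryos from their group means correlated between -0.05 and 0.05 across genes, under the 0.1 set for taking the numbers as pairs. In the 3 groups of 3 embryos the replicate number is also the pool number, and the labels do not say that it marks a batch, so the replicate block is there the pool as a block. Values within pools were added after seeing the data.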
